A study of Rattus norvegicus with 11 samples.

Results

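The 40 genes described here encode proteins of the interferon response and of antigen presentation by major histocompatibility complex (MHC) class I. They were taken by symbol from a list of names that was chosen with earlier results of these data known. All 40 were found among the 42172 genes of the count files. They were followed in primary hippocampal neurons of Sprague Dawley rats at day 7 in vitro. The mutant group expressed exogenous H1.4 CFT, the linker histone H1.4 with a C-terminus frameshift tail (CFT 1 to 4, n = 4). The others expressed exogenous wild-type H1.4 (WT 1 to 4, n = 4) or green fluorescent protein (GFP 2 to 4, n = 3). Linker histones bind the DNA at the entry and exit of the nucleosome. The species and sequence of the constructs, their promoter and the way they were delivered are not given in the sources used here, so the labels were not checked against a transgene. The H1.4 CFT and WT H1.4 neurons share exogenous expression of a linker histone, and the GFP neurons do not.

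Interferons are secreted proteins that warn cells of viral nucleic acid. RIG-I and MDA5 sense foreign RNA in the cytoplasm and can induce type I interferon, which signals through its receptor and JAK kinases to a complex that holds STAT2 and IRF9. That complex binds interferon-stimulated response elements (ISRE) in the promoters of antiviral genes, while interferon gamma acts through gamma-activated sequences (GAS). Interferons also raise MHC class I, its light chain, the immunoproteasome that makes peptides and the transporter that loads them. Neurons are known for low resting levels of MHC class I and of many interferon-stimulated genes.

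Total gene counts ranged from 12070941 in GFP 3 to 18846492 in WT 1. A count of 1 was worth between 0.0518 and 0.0839 CPM, the counts scaled to the size of each library with TMM factors that correct for composition, in which every level here is given. All 10 markers of neurons passed the low-count filter. Their summed level ranged from 4017 to 4770 CPM in H1.4 CFT, from 5819 to 5966 in WT H1.4 and from 5800 to 5934 in GFP. The 12 astrocyte markers ranged from 2215 to 2303 CPM in H1.4 CFT, from 1694 to 1824 in WT H1.4 and from 2145 to 2301 in GFP, so the cultures also held astrocyte transcripts. Among the H1.4 CFT and among the WT H1.4 libraries, those numbered 1 and 2 stood near each other and apart from 3 and 4. The chi-square per gene was 1.78 to 2.22 within those pairs and in GFP 3 with GFP 4, and 3.67 to 9.19 otherwise. The labels give no batch.

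Most of the testable genes of the interferon response and antigen presentation were higher in H1.4 CFT neurons than in WT H1.4 neurons. Of the 33 members with enough reads to test, 20 were higher, 2 were lower and 11 did not pass, at an adjusted p of 0.05 in edgeR's quasi-likelihood test with Benjamini-Hochberg adjustment over all 17294 genes tested. In the same comparison 35.9% of all tested genes passed, 16.7% higher and 19.2% lower. Since the list was chosen with earlier results of these data known, the member counts are not independent of those results. The median log2 fold change was 0.58 over the 33 members and 0.018 over all tested genes, and 29 of 33 members had a positive sign. The 20 that rose had log2 fold changes from 0.24 to 1.77. In 17 members all H1.4 CFT libraries exceeded all WT H1.4 libraries, and in 1, Stat2, all lay below. Over all tested genes the shares were 16.1% above and 18.5% below. With the replicate number as a block 22 members were higher and 2 were lower, because Ifi27 and Psmb9 also passed. Of all tested genes 39.4% passed in that fit. With only the libraries numbered 1 and 2, 17 members were higher and 0 were lower, and of all tested genes 27.9% passed, 12.3% higher and 15.7% lower. With only those numbered 3 and 4, 18 were higher and 2 lower, and of all tested genes 45.5% passed, 20.3% higher and 25.2% lower. At an unadjusted p under 0.05 over all 11 libraries, 25 of 33 members passed. The share of all tested genes at that unadjusted threshold is not given here, so this count has no background beside it.

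**Figure D1:**
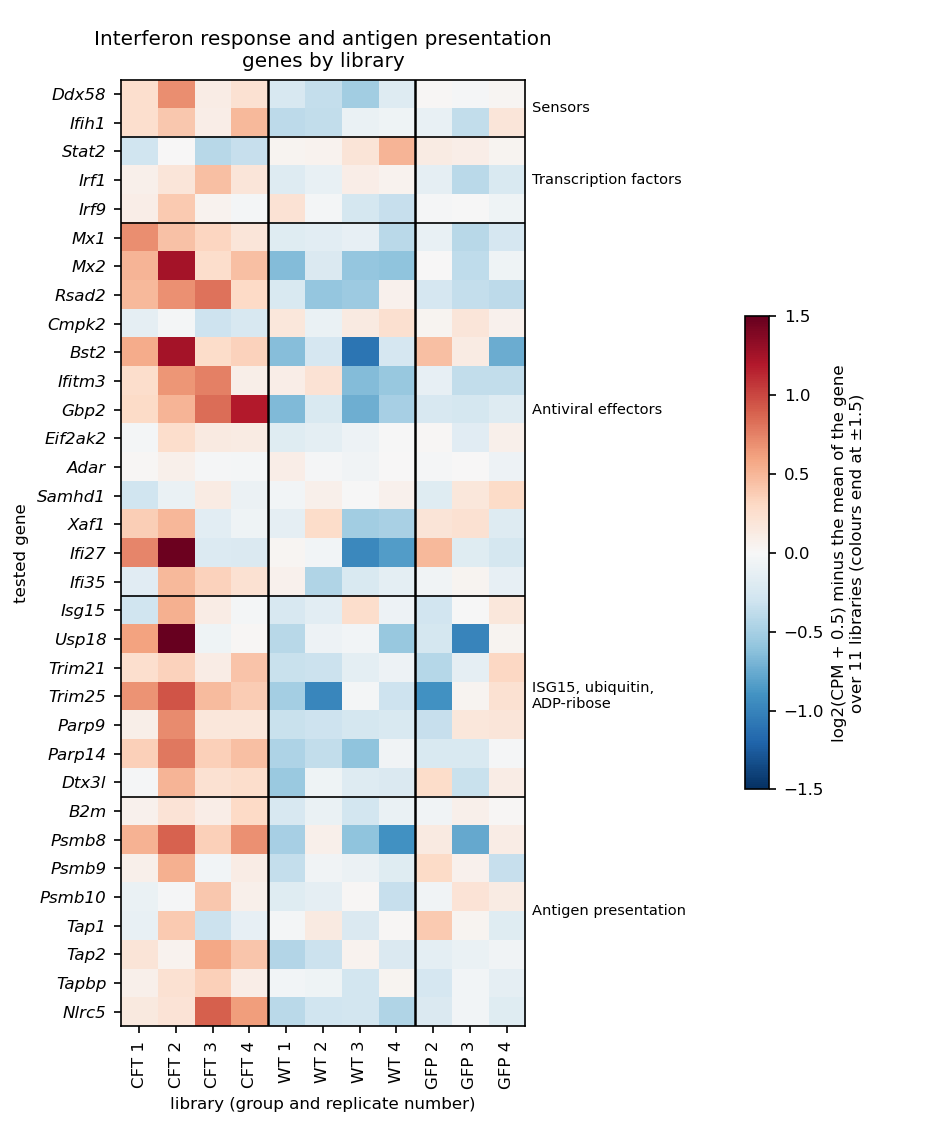
Heat map of the 33 tested genes (rows, by role) in the 11 libraries (columns, with H1.4 CFT at the left, then WT H1.4 and GFP). Colour gives log2(CPM + 0.5) minus the mean of that gene over the 11 libraries. The median over the 33 genes was between 0.14 and 0.49 in the H1.4 CFT libraries, between -0.24 and -0.14 in the WT H1.4 libraries and between -0.058 and -0.039 in the GFP libraries, with CFT 2 the highest.

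The cell types from which these transcripts came were not separated, and in bulk RNA fewer cells of a type and less RNA per cell cannot be told apart. Microglia, the brain's resident macrophages, and lymphocytes carry many of these genes in other settings. The 15 markers of microglia and macrophages summed to between 39.5 and 57.2 CPM in H1.4 CFT, between 51.3 and 67.1 in WT H1.4 and between 50.4 and 60.0 in GFP. Only 5 of the 15 were testable, with Csf1r higher and P2ry12 lower in H1.4 CFT neurons than in WT H1.4. Among the 10 that were not testable, C1qa, C1qb, C1qc, Cx3cr1, Trem2 and Tyrobp had between 0 and 5 counts in every library. All 15 together held between 615 counts in GFP 3 and 1016 in CFT 2, and P2ry12, Csf1r and Fcer1g were among the testable ones. The 8 lymphocyte markers summed to between 1.14 and 1.59 CPM in H1.4 CFT, between 0.827 and 1.30 in WT H1.4 and between 0.363 and 1.26 in GFP, with Ms4a1 and Nkg7 at 0 counts in every library. Of 11 tested astrocyte markers, 7 were higher in H1.4 CFT neurons than in WT H1.4, 2 were higher in H1.4 CFT than in GFP and 6 were lower in the WT H1.4 neurons than in GFP. Of 10 tested neuronal markers, 7 were lower and 1 higher in H1.4 CFT neurons than in WT H1.4. The part of astrocyte, vascular and neuronal content in the member results was not tested. The 14 endothelial, mural and fibroblast markers summed to between 77.1 and 88.2 CPM in H1.4 CFT, between 65.7 and 82.3 in WT H1.4 and between 94.3 and 107 in GFP. Of 11 tested, 4 were higher and 1 was lower in H1.4 CFT neurons than in WT H1.4, and 3 were lower in the WT H1.4 neurons than in GFP. The 10 oligodendrocyte markers summed to between 477 and 553 CPM in H1.4 CFT, between 478 and 573 in WT H1.4 and between 473 and 584 in GFP.

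Promoters of these genes were read from RefSeq windows of the GRCr8 build, from 250 bases before to 50 after the annotated start and written in the direction of the gene. The counts were made on the mRatBN7.2 build, so these windows serve for sequence only. Of the 40 members, 31 had a window. The ISRE core was searched as GAAA, any 2 bases and GAAA again on both strands, which reads as TTTC, any 2 bases and TTTC when it lies on the other strand. It stood in 20 of 31 member windows (64.5%) and in 3.92% of 33465 windows of all genes. It was found in 13 of the 16 windows of members that rose in H1.4 CFT relative to WT H1.4, in 4 of the 11 windows of tested members that did not rise and in 3 of 4 windows of untested members. The GAS motif, searched as TTCNNNGAA, stood in 7 member windows (22.6%) and in 8.87% of all windows, with 4 of 16 among members that rose and 3 of 11 among tested members that did not. In Bst2 a GAS match overlapped the ISRE matches. A match describes letters in a window and is no evidence of binding in these neurons. The 13 members that rose and carry the ISRE core are shown with 10 bases on either side of it, the matched bases in capitals. They show the letters behind the count. The members were chosen by name as interferon response genes, a choice that is not independent of this motif. Overlapping matches are joined.

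Ifih1: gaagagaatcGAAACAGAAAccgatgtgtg
Rsad2: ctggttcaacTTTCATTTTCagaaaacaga
Bst2: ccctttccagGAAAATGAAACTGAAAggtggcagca
Ifitm3: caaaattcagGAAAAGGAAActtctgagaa
Gbp2: agttttttagTTTCACTTTCattgtcttaa
Eif2ak2: agtccgccggGAAAACGAAAcagagagaac
Trim21: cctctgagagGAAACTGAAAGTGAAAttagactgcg
Parp14: tccaggaaatGAAAGTGAAAgaagtaagtt
Dtx3l: cccgggaaacGAAACTGAAActttgcctct
B2m: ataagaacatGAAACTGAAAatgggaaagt
Psmb8: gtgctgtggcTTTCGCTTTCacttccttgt
Tap2: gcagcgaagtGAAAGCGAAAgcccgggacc
Tapbp: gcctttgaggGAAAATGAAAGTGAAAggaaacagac

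The core ran as GAAA to GAAA along the gene in 10 of the 13 and as TTTC to TTTC in Rsad2, Gbp2 and Psmb8. Bst2, Trim21 and Tapbp each had 2 overlapping matches, with GAAA 3 times in a row. The same core was present in members that did not pass, of which Tap1 and Xaf1 are shown for comparison.

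Tap1: cggtggctgcTTTCGGTTTCttcttcctct
Xaf1: tgtgtgcaaaGAAACAGAAActccaccgaa

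For Gbp2 and Parp14, which had the smallest p among the members that rose, the 250 bases before the start follow in full, again with the ISRE core in capitals. Gbp2 is at chr2:234005477-234005726 and Parp14 at chr11:78407884-78408133, both on the plus strand of GRCr8.

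Gbp2: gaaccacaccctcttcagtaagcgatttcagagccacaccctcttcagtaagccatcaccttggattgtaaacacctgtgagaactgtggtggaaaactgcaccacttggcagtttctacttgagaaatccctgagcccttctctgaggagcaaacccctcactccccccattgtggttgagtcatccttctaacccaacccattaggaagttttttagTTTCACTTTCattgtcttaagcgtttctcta
Parp14: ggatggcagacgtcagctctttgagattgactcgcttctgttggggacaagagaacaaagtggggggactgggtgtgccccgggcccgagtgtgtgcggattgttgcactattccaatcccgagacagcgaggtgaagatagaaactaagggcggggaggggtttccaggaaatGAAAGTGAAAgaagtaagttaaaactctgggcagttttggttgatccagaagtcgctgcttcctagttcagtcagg

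The single ISRE match in the Gbp2 window began 31 bases before the start and that in the Parp14 window 76 bases before it. Windows of Mx1, Trim25 and Parp9, which also rose, held neither motif, and no match says only that these letters are not in the window.

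**Figure D2:**
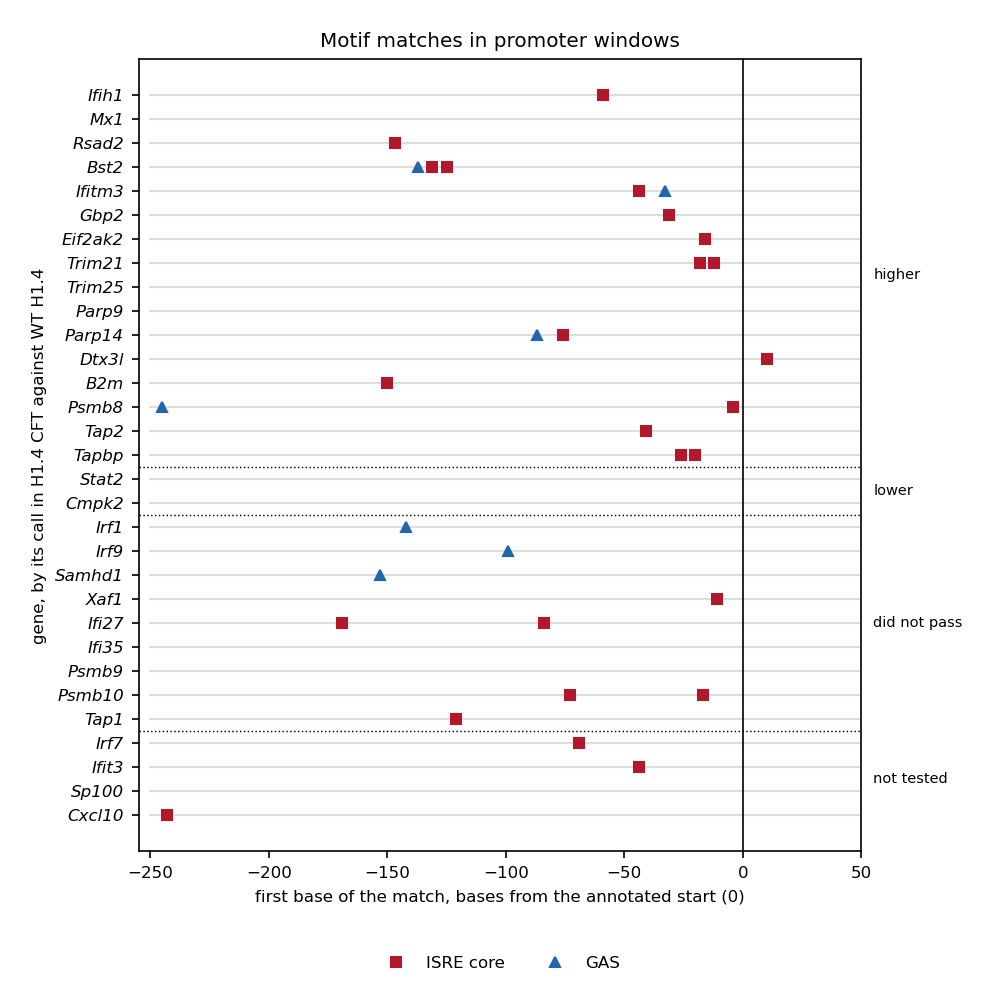
Position of ISRE core matches (squares) and GAS matches (triangles) in the promoter windows of 31 genes, as the first base of the match relative to the annotated start at 0. Rows are grouped by the call in H1.4 CFT relative to WT H1.4, and grey lines mark the window from 250 bases before the start to 50 after it. Of the 16 genes that were higher, 13 carry an ISRE core.

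Both testable cytoplasmic RNA sensors rose in H1.4 CFT relative to WT H1.4. Ddx58, which encodes RIG-I, stood at 5.56, 7.77, 5.0 and 5.44 CPM in CFT 1 to 4, 3.79, 3.47, 3.03 and 3.94 CPM in WT 1 to 4 and 4.65, 4.53 and 4.69 CPM in GFP 2 to 4. All H1.4 CFT libraries exceeded all others, with CFT 2 the highest and the WT H1.4 libraries the lowest. Ddx58 rose 1.67-fold (log2 fold change 0.74, SE 0.16, adjusted p = 0.00137). Ifih1, which encodes MDA5, was at 3.52, 3.94, 3.12 and 4.20 CPM in CFT 1 to 4, 2.06, 2.10, 2.65 and 2.73 CPM in WT 1 to 4 and 2.62, 2.10 and 3.31 CPM in GFP 2 to 4. All H1.4 CFT libraries exceeded all WT H1.4 libraries, while GFP 4 reached into the H1.4 CFT range. Ifih1 rose 1.55-fold (log2 fold change 0.63, SE 0.19, adjusted p = 0.0137). Ifih1 did not pass with the libraries numbered 3 and 4 alone (0.158), in a range of 0.0095 to 0.158 over 20 alternatives. Zbp1, a sensor of Z-form nucleic acid, had at most 2 counts in any library and was not tested. In the RefSeq annotation 8 of the 40 members overlap another gene, namely Ddx58, Ifit1, Eif2ak2, Xaf1, Parp9, Dtx3l, Nlrc5 and Cxcl10. Since the strand setting of the counting is not given here, reads of such partners cannot be told apart, and the values of these 8 are uncertain to that extent.

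The transcription factors did not move together. Stat2, the STAT partner of IRF9 in the type I interferon complex, was lower in H1.4 CFT, at 21.9, 27.4, 20.2 and 21.3 CPM in CFT 1 to 4, 28.0, 28.1, 31.0 and 39.0 CPM in WT 1 to 4 and 29.6, 29.1 and 27.8 CPM in GFP 2 to 4. The H1.4 CFT libraries all lay below the WT H1.4 and GFP libraries, although CFT 2 came within 1 CPM of WT 1 and GFP 4. Stat2 fell 1.39-fold against WT H1.4 (log2 fold change -0.47, SE 0.11, adjusted p = 0.00289). Stat2 did not pass with the libraries numbered 1 and 2 alone (0.148), in a range of 4.10e-16 to 0.148 over 21 alternatives. Irf1, the interferon regulatory factor of the gamma response, was at 4.88, 5.29, 6.47 and 5.29 CPM in CFT 1 to 4, 3.95, 4.20, 4.96 and 4.79 CPM in WT 1 to 4 and 4.14, 3.36 and 3.85 CPM in GFP 2 to 4. Its H1.4 CFT libraries overlapped those of WT H1.4 and lay above those of GFP. The log2 fold change of Irf1 against WT H1.4 was 0.29 (SE 0.15, adjusted p = 0.13). Irf9, the DNA-binding partner of STAT2, averaged 13.7 ± 1.93 CPM in H1.4 CFT, 11.7 ± 2.19 CPM in WT H1.4 and 12.2 ± 0.302 CPM in GFP (SD) with overlapping groups and did not pass (log2 fold change 0.23, adjusted p = 0.15), except without WT 1 (0.0292, in a range of 0.0292 to 0.436 over 21 alternatives). Irf7, which amplifies the type I response, had 1, 14, 3 and 9 counts in CFT 1 to 4, 1, 6, 6 and 7 in WT 1 to 4 and 3, 9 and 6 in GFP 2 to 4 and was not tested.

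Among the antiviral effectors, 7 of 13 tested members rose in H1.4 CFT relative to WT H1.4, 1 fell and 5 did not pass. Gbp2, an interferon-induced guanylate-binding protein, stood at 5.90, 6.98, 8.86 and 11.4 CPM in CFT 1 to 4, 2.82, 3.98, 2.65 and 3.22 CPM in WT 1 to 4 and 3.92, 3.86 and 4.09 CPM in GFP 2 to 4. The H1.4 CFT values exceeded all others, with CFT 3 and CFT 4 the highest, and the WT H1.4 and GFP ranges overlapped. It rose 2.65-fold (log2 fold change 1.4, SE 0.19, adjusted p = 1.54e-05), the smallest p of the members. Mx2 and Mx1 are dynamin-like GTPases that block viral replication. Mx2 was at 18.7, 31.6, 15.7 and 17.9 CPM in CFT 1 to 4, 8.07, 11.1, 8.55 and 8.37 CPM in WT 1 to 4 and 13.1, 9.82 and 12.4 CPM in GFP 2 to 4. The H1.4 CFT and WT H1.4 ranges did not meet, and CFT 2 stood far above CFT 1, 3 and 4. Mx2 rose 2.34-fold (log2 fold change 1.22, SE 0.22, adjusted p = 0.00171). Mx2 did not pass with the libraries numbered 1 and 2 alone (0.14), in a range of 5.08e-12 to 0.14 over 21 alternatives. Mx1 was at 7.09, 5.85, 5.34 and 4.82 CPM in CFT 1 to 4, 3.63, 3.69, 3.80 and 3.03 CPM in WT 1 to 4 and 3.85, 3.02 and 3.43 CPM in GFP 2 to 4. Its H1.4 CFT libraries lay above all others and its WT H1.4 and GFP libraries overlapped. Mx1 rose 1.63-fold (log2 fold change 0.70, SE 0.16, adjusted p = 0.00176). Rsad2, which encodes viperin, a radical SAM enzyme that makes an antiviral nucleotide, had low levels of 1.31, 1.58, 1.76 and 1.09 CPM in CFT 1 to 4, 0.596, 0.362, 0.386 and 0.850 CPM in WT 1 to 4 and 0.581, 0.504 and 0.481 CPM in GFP 2 to 4. All 4 H1.4 CFT libraries exceeded 1 CPM and no library of the other groups did. Rsad2 rose 2.57-fold (log2 fold change 1.36, SE 0.32, adjusted p = 0.0028).

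The other effectors are given by their means, as mean ± SD over 4 libraries a group. Bst2, the tetherin that holds budding virions at the membrane, averaged 1.93 ± 0.831 CPM in H1.4 CFT and 0.573 ± 0.276 CPM in WT H1.4 and rose 3.42-fold (log2 fold change 1.77, SE 0.42, adjusted p = 0.00291). Its H1.4 CFT and WT H1.4 libraries did not overlap. Ifitm3, a membrane protein that hinders viral fusion, averaged 1.91 ± 0.522 CPM in H1.4 CFT and 1.04 ± 0.467 CPM in WT H1.4 with overlapping libraries and rose 1.85-fold (adjusted p = 0.0312). Ifitm3 did not pass without CFT 2, CFT 3, WT 3 or WT 4 (adjusted p from 0.0732 to 0.106) or with the libraries numbered 1 and 2 alone (0.384), in a range of 0.00121 to 0.384 over 20 alternatives. Eif2ak2, the RNA-activated kinase PKR, averaged 21.9 ± 1.80 CPM in H1.4 CFT and 18.6 ± 1.01 CPM in WT H1.4 and rose 1.18-fold (adjusted p = 0.0288). Eif2ak2 did not pass without CFT 2, CFT 3, CFT 4, WT 1 or WT 2 (adjusted p from 0.0509 to 0.0961) or with the libraries numbered 3 and 4 alone (0.179), in a range of 0.0124 to 0.179 over 21 alternatives. Cmpk2, a mitochondrial nucleotide kinase, averaged 6.99 ± 0.636 CPM in H1.4 CFT and 8.66 ± 0.904 CPM in WT H1.4 and fell 1.24-fold (adjusted p = 0.0392). Cmpk2 did not pass without CFT 1, CFT 3, CFT 4, WT 1, WT 3 or WT 4 (adjusted p from 0.0521 to 0.116), with no low-count filter (0.0649), with only the 2 groups in the fit (0.0515) or with the libraries numbered 1 and 2 alone (0.541), in a range of 0.00747 to 0.541 over 21 alternatives. The 5 that did not pass were Adar, an RNA-editing enzyme, Samhd1, a dNTP hydrolase, Xaf1, Ifi27 and Ifi35, with log2 fold changes of -0.00, -0.12, 0.49, 1.04 and 0.49. The size for Ifi27 went with a wide spread, at 29.6, 49.5, 15.2 and 15 CPM in CFT 1 to 4, 17.9, 17.1, 8.77 and 9.59 CPM in WT 1 to 4 and 24.8, 15.4 and 14.5 CPM in GFP 2 to 4. CFT 1 and CFT 2 stood above CFT 3 and CFT 4, as WT 1 and WT 2 did above WT 3 and WT 4. With the replicate block Ifi27 passed (log2 fold change 0.96, adjusted p = 0.00348, in a range of 1.39e-06 to 0.288 over 21 alternatives). Ifi35 passed without CFT 1 (0.0217) and without WT 1 (0.0463), in a range of 0.0217 to 0.307 over 20 alternatives.

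Transcripts of the IFIT proteins, which bind viral RNA ends, were near the limit of detection. Ifit1 had 7, 6, 2 and 1 counts in CFT 1 to 4, 1, 0, 0 and 0 in WT 1 to 4 and 1, 0 and 7 in GFP 2 to 4. Ifit2 had 8, 8, 10 and 10 counts in CFT 1 to 4, 8, 2, 3 and 4 in WT 1 to 4 and 7, 3 and 4 in GFP 2 to 4. Ifit3 had 3, 4, 0 and 0 counts in CFT 1 to 4, 5, 4, 9 and 3 in WT 1 to 4 and 4, 1 and 6 in GFP 2 to 4. All 4 H1.4 CFT libraries held at least as many Ifit1 reads as the highest WT H1.4 library, while GFP 4 held as many as CFT 1. Without the low-count filter Ifit1 had a fitted log2 fold change of 3.36 (SE 1.17, adjusted p = 0.0220) for H1.4 CFT relative to WT H1.4, in which the WT H1.4 group had 1 read in all, so this size depends on the fit's prior count. Ifit2 and Ifit3 did not pass in that fit (adjusted p of 0.261 and 0.137). Sp100, a nuclear body protein, had between 0 and 4 counts per library, and Cxcl10, a chemokine that draws T cells, had 0, 3, 0 and 4 counts in CFT 1 to 4, 0, 1, 4 and 0 in WT 1 to 4 and 1, 0 and 0 in GFP 2 to 4. Mx1 and Mx2, the IFIT genes, Ifitm3 and Gbp2 belong to families of similar sequence, and how the counting split reads among relatives is not given in the sources used here.

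Of the 7 genes of the ISG15 system and of ubiquitin or ADP-ribose enzymes, 6 rose in H1.4 CFT relative to WT H1.4. Parp14, a mono-ADP-ribosyl transferase, stood at 8.17, 11.3, 8.23 and 8.76 CPM in CFT 1 to 4, 4.44, 4.77, 3.97 and 6.07 CPM in WT 1 to 4 and 5.30, 5.29 and 6.19 CPM in GFP 2 to 4. The H1.4 CFT libraries lay above all others, with CFT 2 the highest, and the WT H1.4 and GFP ranges overlapped. Parp14 rose 1.90-fold (log2 fold change 0.92, SE 0.15, adjusted p = 8.22e-05). Trim25, the ubiquitin ligase that activates RIG-I, was at 4.71, 5.74, 4.03 and 3.73 CPM in CFT 1 to 4, 1.79, 1.16, 2.7 and 2.12 CPM in WT 1 to 4 and 1.24, 2.85 and 3.31 CPM in GFP 2 to 4. Every H1.4 CFT library was above every other library, and WT 2 and GFP 2 were the lowest. Trim25 rose 2.31-fold (log2 fold change 1.21, SE 0.26, adjusted p = 0.00165). Parp9 and Dtx3l encode an ADP-ribosyl transferase and its ubiquitin ligase partner. Parp9 was at 6.19, 9.74, 6.59 and 6.58 CPM in CFT 1 to 4, 4.50, 4.56, 4.74 and 4.85 CPM in WT 1 to 4 and 4.43, 6.55 and 6.61 CPM in GFP 2 to 4. The WT H1.4 values lay close together below all H1.4 CFT values, and CFT 2 stood apart above CFT 1, 3 and 4. Parp9 rose 1.56-fold (log2 fold change 0.64, SE 0.16, adjusted p = 0.0043). Dtx3l was at 4.71, 7.04, 5.68 and 5.86 CPM in CFT 1 to 4, 3.09, 4.56, 4.14 and 4.07 CPM in WT 1 to 4 and 5.88, 3.69 and 5.23 CPM in GFP 2 to 4. The H1.4 CFT and WT H1.4 ranges did not overlap, by a narrow margin between CFT 1 and WT 2. Dtx3l rose 1.48-fold (log2 fold change 0.56, SE 0.17, adjusted p = 0.015). Dtx3l did not pass without CFT 2 or WT 1 (adjusted p of 0.0536 and 0.0624), in a range of 0.00438 to 0.0624 over 21 alternatives. Parp9 and Dtx3l overlap each other.

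Trim21, a ubiquitin ligase that binds antibody inside cells, averaged 3.67 ± 0.390 CPM in H1.4 CFT and 2.45 ± 0.254 CPM in WT H1.4 (SD, n = 4 each) and rose 1.5-fold (adjusted p = 0.0236). Trim21 did not pass without CFT 4, WT 1 or WT 2 (adjusted p of 0.0689, 0.0654 and 0.0579) or with the libraries numbered 3 and 4 alone (0.155), in a range of 0.015 to 0.155 over 20 alternatives. Usp18, the protease that removes ISG15 and restrains interferon signalling, was at 2.27, 5.69, 1.25 and 1.35 CPM in CFT 1 to 4, 0.867, 1.23, 1.27 and 0.728 CPM in WT 1 to 4 and 1.02, 0.420 and 1.38 CPM in GFP 2 to 4. CFT 2 stood far above every other library and the groups overlapped. Usp18 rose 2.57-fold (log2 fold change 1.36, SE 0.50, adjusted p = 0.0495). The call for Usp18 did not hold without CFT 1, CFT 2, WT 1, WT 2, WT 3, WT 4, GFP 2 or GFP 4 (adjusted p from 0.0555 to 0.147), with RLE scaling (0.0505), by limma-voom (0.0764), with only the 2 groups in the fit (0.0606) or with the libraries numbered 3 and 4 alone (0.522), in a range of 4.33e-05 to 0.522 over 20 alternatives. Without CFT 2 its log2 fold change was 0.66. Isg15, the ubiquitin-like modifier itself, averaged 1.59 ± 0.521 CPM in H1.4 CFT, 1.38 ± 0.304 CPM in WT H1.4 and 1.4 ± 0.298 CPM in GFP and did not pass (log2 fold change 0.20, SE 0.28, adjusted p = 0.608).

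Antigen presentation genes were also higher in H1.4 CFT neurons than in WT H1.4, with 5 of 8 members past the threshold and 3 that did not pass. B2m, the light chain of MHC class I, stood at 89.4, 98.3, 91.8 and 105 CPM in CFT 1 to 4, 72.1, 79.9, 70.4 and 79.3 CPM in WT 1 to 4 and 82.5, 90.3 and 86.3 CPM in GFP 2 to 4. The H1.4 CFT libraries lay above all WT H1.4 libraries, and the GFP libraries lay between, with GFP 3 above CFT 1. B2m rose 1.28-fold (log2 fold change 0.35, SE 0.056, adjusted p = 8.61e-05). Nlrc5, the transactivator of MHC class I genes, was at 2.84, 2.98, 5.11 and 4.15 CPM in CFT 1 to 4, 1.79, 1.95, 1.98 and 1.70 CPM in WT 1 to 4 and 2.11, 2.43 and 2.16 CPM in GFP 2 to 4. All H1.4 CFT libraries were above all others, CFT 3 and CFT 4 more than CFT 1 and CFT 2. Nlrc5 rose 2.03-fold (log2 fold change 1.02, SE 0.21, adjusted p = 0.000883). Nlrc5 did not pass with the libraries numbered 1 and 2 alone (0.0883), in a range of 4.97e-06 to 0.0883 over 20 alternatives. Psmb8, a catalytic subunit of the immunoproteasome, was at 2.16, 2.93, 1.87 and 2.49 CPM in CFT 1 to 4, 0.813, 1.45, 0.717 and 0.485 CPM in WT 1 to 4 and 1.53, 0.588 and 1.5 CPM in GFP 2 to 4. Its H1.4 CFT libraries all exceeded the rest, and the WT H1.4 and GFP libraries overlapped. Psmb8 rose 2.78-fold (log2 fold change 1.47, SE 0.32, adjusted p = 0.00123). Tap2, a chain of the transporter that carries peptides into the endoplasmic reticulum, was at 5.56, 5.01, 7.44 and 6.58 CPM in CFT 1 to 4, 3.41, 3.76, 5.02 and 4.07 CPM in WT 1 to 4 and 4.29, 4.45 and 4.63 CPM in GFP 2 to 4. CFT 2 lay just below WT 3, and every H1.4 CFT library was above the GFP libraries. Tap2 rose 1.51-fold (log2 fold change 0.59, SE 0.16, adjusted p = 0.00643).

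Tapbp, the tapasin that bridges transporter and MHC class I, averaged 14.2 ± 1.38 CPM in H1.4 CFT and 11.6 ± 1.12 CPM in WT H1.4 (SD, n = 4 each) and rose 1.22-fold (adjusted p = 0.0312). Tapbp did not pass without CFT 2, CFT 3, WT 1, WT 2 or WT 3 (adjusted p from 0.0513 to 0.116) or with the libraries numbered 1 and 2 alone (0.206), in a range of 0.0204 to 0.206 over 21 alternatives. Tap1, the other chain of the transporter, averaged 8.67 ± 2.06 CPM in H1.4 CFT and 8.65 ± 0.907 CPM in WT H1.4, and 9.46 ± 1.99 CPM in GFP (n = 3), with a log2 fold change of 0.01 against WT H1.4 (SE 0.16, adjusted p = 0.977). The immunoproteasome subunits Psmb9 and Psmb10 had log2 fold changes of 0.39 and 0.27 and did not pass (adjusted p of 0.0754 and 0.0989). Psmb10 passed with the libraries numbered 3 and 4 alone (log2 fold change 0.40, adjusted p = 0.0205, in a range of 0.0205 to 0.633 over 21 alternatives). Psmb9 passed with the replicate block (0.0421, in a range of 0.0201 to 0.495 over 21 alternatives), and its H1.4 CFT libraries, from 5.28 to 8.05 CPM, did not overlap those of WT H1.4, from 4.12 to 5.21 CPM. Tap2, Psmb8, Tap1 and Psmb9 are neighbours in that order in the RefSeq annotation, so within this cluster of the MHC region Tap2 and Psmb8 passed while Tap1 and Psmb9 did not. Parp9, Dtx3l and Parp14 are likewise neighbours and all 3 rose. Rsad2 and Cmpk2 lie next to each other on opposite strands, and Rsad2 rose while Cmpk2 fell.

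**Figure D3:**
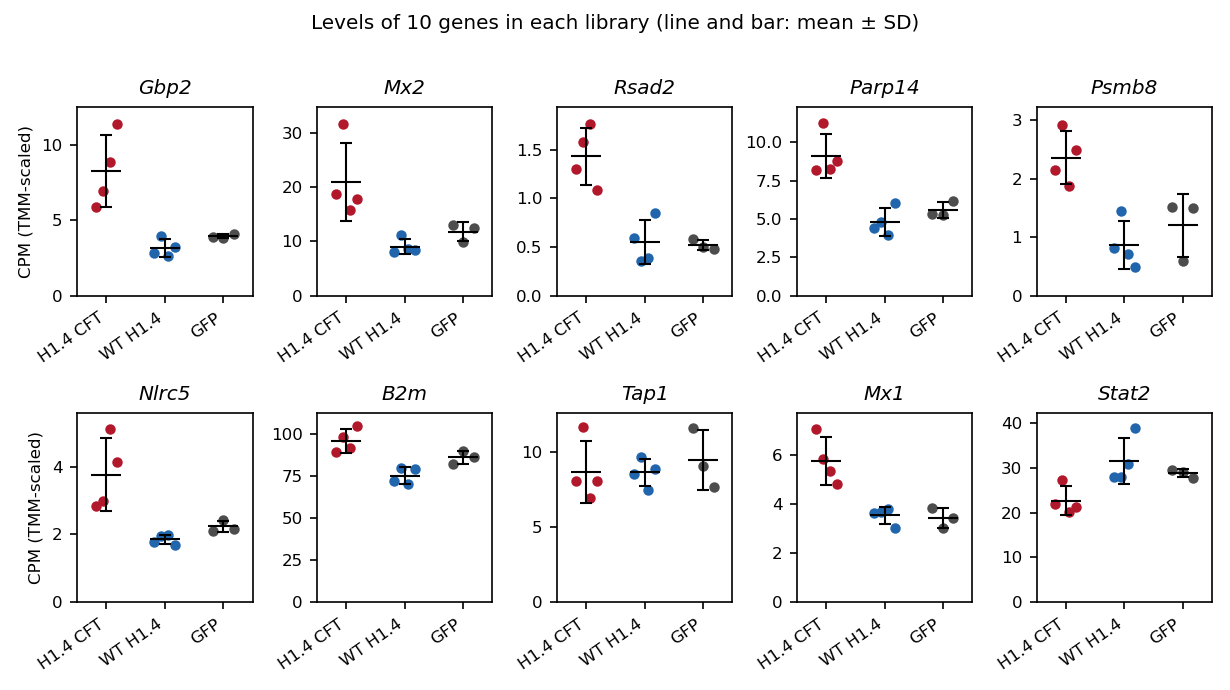
CPM of 10 genes in each library, with H1.4 CFT at the left, then WT H1.4 and GFP. Points are libraries, and the line and bars give the mean ± SD (n = 4, 4 and 3). Gbp2, Rsad2, Parp14, Psmb8, Nlrc5, Mx2 and Mx1 have every H1.4 CFT library above the other groups, Stat2 has every one below, and Tap1 overlaps throughout.

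Against the GFP neurons fewer members passed. In H1.4 CFT 11 of 33 members were higher than in GFP, 1 was lower and 21 did not pass, while 29.5% of all tested genes passed, 13.3% higher and 16.2% lower. This comparison shares the H1.4 CFT libraries with the one against WT H1.4, so the calls in both are not independent. The median log2 fold change was 0.36 over the members and 0.011 over all tested genes, and 29 of 33 members had a positive sign. Libraries did not overlap in 13 members with H1.4 CFT above and in 2 with H1.4 CFT below, where the shares of all tested genes were 17% and 18.5%. Of the markers listed above, 8 of 10 neuronal ones were lower and 2 of 11 tested astrocyte ones were higher in H1.4 CFT neurons than in GFP, and their part in the result was not tested. The count rests on the 3 GFP libraries. It was 5 without GFP 2, 6 without GFP 3 and 6 without GFP 4, all higher in H1.4 CFT, and 8 without CFT 3, against 12 with all libraries. These fits tested 34, 33, 34 and 33 members, and 23.9%, 22.7%, 22.5% and 24.1% of all tested genes passed in them. The counts of members that passed in either direction thus lay near or below these shares, which are also for either direction. The shares of all tested genes that were higher are not given for these fits. With the replicate block 14 were higher and 0 lower, since Usp18, B2m and Tap2 passed (adjusted p of 0.0316, 0.0192 and 0.0191) and Stat2 did not (0.0688). Of all tested genes 32.4% passed in that fit. Ranges over the alternatives were 0.000249 to 0.217 for Usp18, 0.0192 to 0.212 for B2m, 0.0191 to 0.158 for Tap2 and 0.000472 to 0.109 for Stat2.

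Gbp2, Rsad2, Mx1 and Parp14 rose against GFP in every alternative run. Gbp2 rose 2.09-fold (log2 fold change 1.07, SE 0.21, adjusted p = 0.000657) and Rsad2 2.72-fold (log2 fold change 1.44, SE 0.37, adjusted p = 0.00636). Mx1 rose 1.67-fold (log2 fold change 0.74, SE 0.18, adjusted p = 0.00353), and Parp14 rose 1.62-fold (adjusted p = 0.00284). The highest adjusted p over the alternatives was 0.00522 for Gbp2, 0.0351 for Rsad2, 0.0234 for Mx1 and 0.0175 for Parp14. Mx2 rose 1.77-fold (adjusted p = 0.0254), Ifitm3 2.05-fold (0.0335), Trim25 1.83-fold (0.028) and Irf1 1.44-fold (0.0206). Each of these 4 calls was lost when any of several libraries was left out. Mx2 did not pass without GFP 2, GFP 3 or GFP 4 (adjusted p of 0.0541, 0.091 and 0.0689) or with only the 2 groups in the fit (0.0644), in a range of 2.69e-05 to 0.091 over 19 alternatives. Ifitm3 did not pass without CFT 2, CFT 3, GFP 2, GFP 3 or GFP 4 (adjusted p from 0.0521 to 0.113) or by limma-voom (0.0565), in a range of 0.0193 to 0.113 over 18 alternatives. Trim25 did not pass without CFT 2, GFP 2 or GFP 3 (adjusted p of 0.0672, 0.139 and 0.052), in a range of 0.00157 to 0.139 over 18 alternatives. Irf1 did not pass without CFT 3, GFP 3 or GFP 4 (adjusted p of 0.0697, 0.0878 and 0.0553), in a range of 0.0126 to 0.0878 over 19 alternatives.

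Of the antigen presentation genes, Psmb8 rose 1.91-fold against GFP (adjusted p = 0.042), Nlrc5 1.69-fold (0.0177) and Tapbp 1.27-fold (0.0237). Psmb8 did not pass without CFT 2, CFT 4, GFP 2, GFP 3 or GFP 4 (adjusted p from 0.051 to 0.196), in a range of 0.0164 to 0.196 over 18 alternatives. Nlrc5 did not pass without CFT 3, GFP 2 or GFP 4 (adjusted p of 0.0743, 0.0572 and 0.0615), in a range of 0.00738 to 0.0743 over 18 alternatives. Tapbp did not pass without CFT 3, GFP 2 or GFP 4 (adjusted p of 0.0781, 0.0986 and 0.0679), in a range of 0.017 to 0.0986 over 19 alternatives. Stat2 fell 1.27-fold (log2 fold change -0.35, SE 0.12, adjusted p = 0.0372). Stat2 did not pass without CFT 1, CFT 3, CFT 4, WT 3, GFP 2, GFP 3 or GFP 4 (adjusted p from 0.0517 to 0.109) or with the replicate block (0.0688), in a range of 0.000472 to 0.109 over 19 alternatives. Members that rose against WT H1.4 and did not pass against GFP had positive log2 fold changes here too, such as 0.89 for Bst2 (adjusted p = 0.13), 0.36 for Ddx58 (0.127), 0.45 for Ifih1 (0.113), 0.31 for Parp9 (0.198), 0.46 for Tap2 (0.0519) and 0.15 for B2m (0.063).

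**Figure D4:**
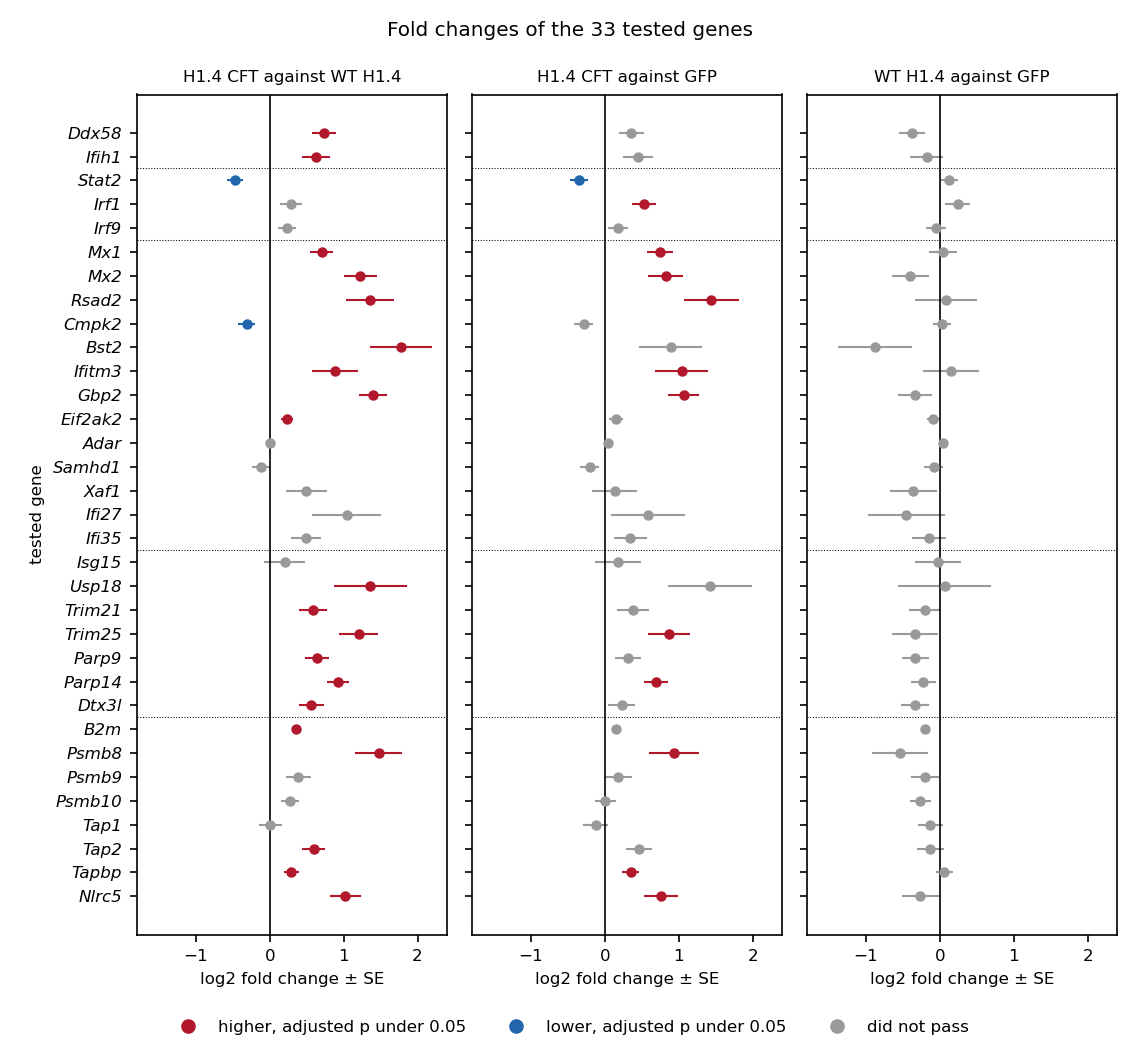
Log2 fold changes ± SE of the 33 tested genes in H1.4 CFT relative to WT H1.4, in H1.4 CFT against GFP and in WT H1.4 against GFP, with genes in the order of their roles. Red marks genes that were higher, blue those that were lower and grey those that did not pass an adjusted p of 0.05. The panels hold 20 red and 2 blue, 11 red and 1 blue, and 0 coloured points.

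Expression of WT H1.4 gave no member that passed against GFP. In edgeR's quasi-likelihood test 0 of 33 members passed, where 0.943% of all tested genes did, 0.434% higher and 0.509% lower, and DESeq2 and limma-voom also gave 0. DESeq2 gave no adjusted p here for Bst2, Psmb8, Rsad2, Ifitm3, Xaf1, Isg15 and Usp18, so these could not pass in it. At an unadjusted p under 0.05 there was 1 member, B2m, and the share of all tested genes at that threshold is not given here. The median log2 fold change was -0.18 over the members and -0.0011 over all tested genes, and 24 of 33 members had a negative sign. B2m had a log2 fold change of -0.20 (SE 0.062, adjusted p = 0.158), and with no low-count filter it passed (0.0495, in a range of 0.0495 to 0.546 over 19 alternatives). Libraries of WT H1.4 lay below all GFP libraries in 3 members, Ddx58, B2m and Nlrc5, and above in 0, where 5.94% and 6.29% of all tested genes did so. The largest sizes were those of Bst2, with a log2 fold change of -0.88 (SE 0.50), and Psmb8, with -0.54 (SE 0.38), and neither passed. This comparison shares the GFP libraries with H1.4 CFT against GFP and the WT H1.4 libraries with H1.4 CFT relative to WT H1.4.

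Interferon genes themselves were not detected beyond single reads. Of 12 interferon ligands listed, 10 were found, and none had more than 1 count in any library, with Ifnb1 and Ifng at 0 in all 11. A count of 0 allows up to 0.252 CPM in the shallowest library, from a limit of 3 counts that covers counting error only. Of 16 receptors, kinases and STATs, 2 rose in H1.4 CFT relative to WT H1.4, 3 fell and 11 did not pass, shares near the 16.7% higher and 19.2% lower of all tested genes. Stat3, the STAT of the interleukin-6 family, was at 113, 116, 122 and 121 CPM in CFT 1 to 4, 88.6, 91.7, 87.3 and 92.4 CPM in WT 1 to 4 and 107, 113 and 112 CPM in GFP 2 to 4. Here the WT H1.4 libraries stood apart as the low ones. Stat3 was 1.31-fold higher in H1.4 CFT neurons than in WT H1.4 (adjusted p = 1.20e-06), had a log2 fold change of 0.10 against GFP (adjusted p = 0.126), and was 1.23-fold lower in the WT H1.4 neurons than in GFP (adjusted p = 0.00212).

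Jak1, the kinase shared by interferon receptors, averaged 135 ± 4.51 CPM in H1.4 CFT and 169.6 ± 5.96 CPM in WT H1.4 (SD, n = 4 each) and 176 ± 6.21 CPM in GFP (n = 3). It fell 1.26-fold in H1.4 CFT relative to WT H1.4 (log2 fold change -0.33, SE 0.042, adjusted p = 6.86e-06). Against GFP it fell 1.31-fold (adjusted p = 4.23e-06). Ifngr2, a chain of the interferon gamma receptor, averaged 22.5 ± 2.85 CPM in H1.4 CFT and 34.6 ± 2.69 CPM in WT H1.4 and 37.8 ± 1.01 CPM in GFP. It fell 1.54-fold in H1.4 CFT relative to WT H1.4 (log2 fold change -0.62, SE 0.082, adjusted p = 1.10e-05). Against GFP it fell 1.68-fold (adjusted p = 4.53e-06). Every H1.4 CFT library lay below every other library for both genes.

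Further interferon-stimulated genes that are not members were mostly higher where they passed. This list too was chosen with earlier results of these data known, so its counts are not independent of those results. Of 50 genes found, 30 were tested, and of all tested genes 16.7% were higher and 19.2% lower in H1.4 CFT relative to WT H1.4. Of the 30, 17 rose in this comparison, 2 fell and 11 did not pass, with a median log2 fold change of 0.56. Those that rose had log2 fold changes from 0.29 to 1.83. Isg20, an interferon-induced exonuclease of RNA, stood at 11.8, 12.4, 16.5 and 18.3 CPM in CFT 1 to 4, 5.15, 6.51, 5.07 and 4.92 CPM in WT 1 to 4 and 5.52, 5.71 and 3.43 CPM in GFP 2 to 4. The H1.4 CFT libraries lay far above all others, CFT 3 and CFT 4 the highest. It rose 2.74-fold against WT H1.4 (log2 fold change 1.46, SE 0.17, adjusted p = 4.68e-06). Against GFP it rose 3.07-fold (adjusted p = 9.85e-06). Helz2, a helicase that acts as a nuclear receptor coactivator, averaged 5.19 ± 0.523 CPM in H1.4 CFT and 1.86 ± 0.380 CPM in WT H1.4 and rose 2.77-fold against WT H1.4 (adjusted p = 9.39e-06) and 2.79-fold against GFP (4.63e-05). Trafd1, an inhibitor of Toll-like receptor signalling, averaged 141 ± 7.12 CPM in H1.4 CFT and 116 ± 2.37 CPM in WT H1.4 and rose 1.22-fold against WT H1.4 (adjusted p = 4.13e-05) and 1.26-fold against GFP (3.41e-05). Against GFP 11 of the 30 rose and 1 fell, where 13.3% of all tested genes were higher and 16.2% lower. Without GFP 3, and likewise without GFP 4, 7 of 31 tested genes of the list rose and 1 fell. In those fits 22.7% and 22.5% of all tested genes passed in either direction. In the list of nucleic acid sensing 6 of 15 rose against WT H1.4, 1 fell and 8 did not pass, beside the 16.7% higher and 19.2% lower of all tested genes. Dhx58, which encodes the RIG-I-like regulator LGP2, averaged 2.54 ± 0.720 CPM in H1.4 CFT and 1.29 ± 0.213 CPM in WT H1.4 and rose 1.94-fold (adjusted p = 0.00684). Zc3hav1, the zinc finger antiviral protein, averaged 3.55 ± 1.53 CPM in H1.4 CFT and 1.65 ± 0.390 CPM in WT H1.4 and rose 2.14-fold (0.00621). Tlr9, a receptor for unmethylated DNA, averaged 0.953 ± 0.237 CPM in H1.4 CFT and 0.264 ± 0.133 CPM in WT H1.4 and rose 3.65-fold (0.00385). These levels are low, since a count of 1 was worth between 0.0518 and 0.0723 CPM in the libraries of these groups. Dhx58 did not pass with the libraries numbered 3 and 4 alone (0.239), in a range of 0.00074 to 0.239 over 20 alternatives. Zc3hav1 did not pass with the libraries numbered 3 and 4 alone (0.0766), in a range of 2.62e-05 to 0.0766 over 20 alternatives. Tlr9 did not pass with the libraries numbered 1 and 2 alone (0.147), in a range of 0.000115 to 0.147 over 20 alternatives.

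In the list of MHC class I and peptide loading, 3 of 14 rose in H1.4 CFT relative to WT H1.4, 1 fell and 10 did not pass, with a median log2 fold change of -0.059. The share that rose lay near the 16.7% of all tested genes. Calr, the chaperone calreticulin, averaged 468 ± 28.0 CPM in H1.4 CFT and 376 ± 14.4 CPM in WT H1.4 and rose 1.25-fold (adjusted p = 4.18e-05). Tapbpl, a tapasin-related peptide editor, averaged 10.1 ± 0.652 CPM in H1.4 CFT and 6.49 ± 0.530 CPM in WT H1.4 and rose 1.57-fold (0.000228), and against GFP 1.48-fold (0.00239). RT1-M3-1, a rat class I gene, averaged 3.82 ± 0.360 CPM in H1.4 CFT and 5.97 ± 0.579 CPM in WT H1.4 and fell 1.56-fold (0.00322). Against GFP 1 of the 14 genes rose and 3 fell, where 13.3% and 16.2% of all tested genes did. Calr passed against GFP with the replicate block (adjusted p = 0.0148, against 0.0606 without it, in a range of 0.0148 to 0.261 over 19 alternatives). The RT1 class I genes are near-identical copies and their counts are uncertain. With only the libraries numbered 3 and 4, 3 genes of the list were higher and 5 lower than in WT H1.4, in place of 3 and 1. DESeq2, limma-voom and only the libraries numbered 1 and 2 each gave 3 higher and 3 lower. The fit without CFT 1 gave 2 and 3, and the replicate block 3 and 2. Of 4 tested MHC class II genes 1 rose, Rfxap, a subunit of the RFX complex at MHC promoters, 1.08-fold (adjusted p = 0.0486), but not in 14 of 21 alternatives, with an adjusted p of 0.0179 to 0.142 over them and of 0.0566 to 0.134 without each of 9 libraries (all but CFT 1 and GFP 2). Among 16 genes of the constitutive proteasome, 0 passed in H1.4 CFT relative to WT H1.4 by edgeR's quasi-likelihood test, by DESeq2 and by limma-voom, and 2 had an unadjusted p under 0.05. Their log2 fold changes ran from -0.10 to 0.11. With only the libraries numbered 3 and 4, 5 of the 16 were higher, and with only those numbered 1 and 2, 1 was lower. The stricter filter gave 2 higher, and 1 was higher with only both groups in the fit, without CFT 2 and without GFP 2. Over all 7 other lists 29 of 95 tested genes rose and 7 fell, where 16.7% and 19.2% of all tested genes did. Most of the 29 came from 1 list, the further interferon-stimulated genes, with 17 of 30. Nucleic acid sensing gave 6 of 15. MHC class I and peptide loading gave 3 of 14, the receptors, kinases and STATs 2 of 16, MHC class II 1 of 4 and the constitutive proteasome 0 of 16.

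**Figure D5:**
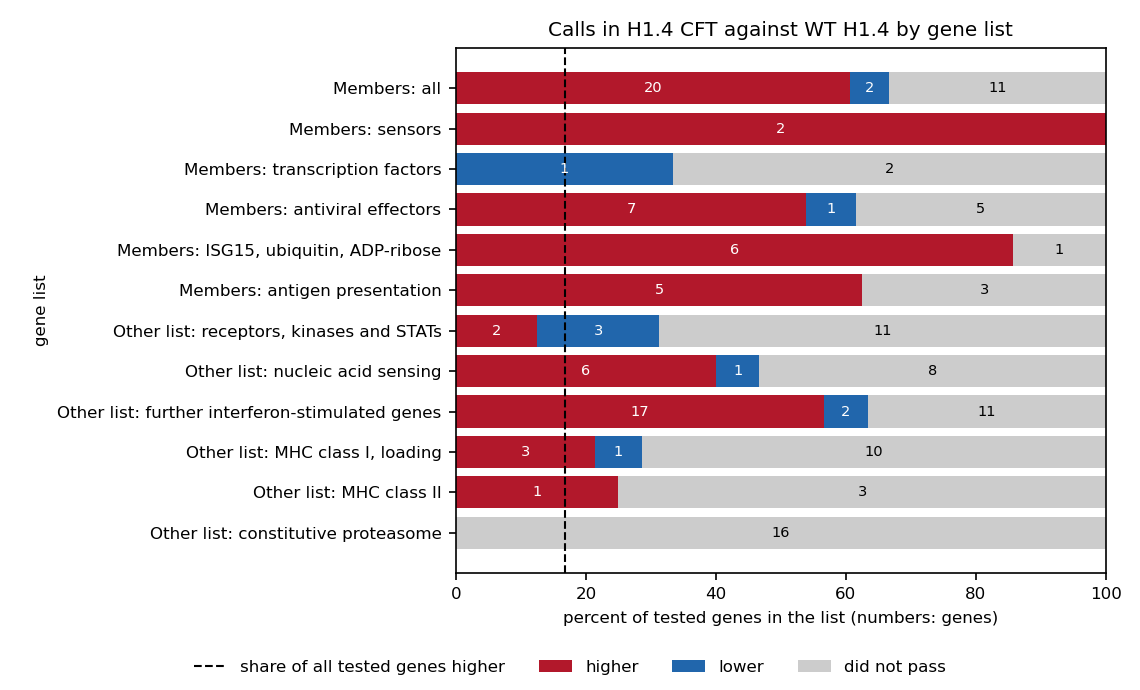
Percent of tested genes in each list that were higher (red), lower (blue) or did not pass (grey) in H1.4 CFT relative to WT H1.4, with the number of genes in each segment. The dashed line marks the 16.7% of all tested genes that were higher. The 5 role groups of the members with tested genes stand at the top, with the other lists under them, down to the constitutive proteasome with 0 of 16.

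Within H1.4 CFT the members differed between libraries in more than 1 pattern. CFT 2 was the highest H1.4 CFT library for 20 of the 33 members, against 26.7% of all tested genes, and CFT 1 was the highest for 1. The median of the centred levels was 0.49 in CFT 2 and between 0.14 and 0.18 in the others. Mx2, Bst2, Usp18, Ifi27, Parp9 and Parp14 peaked in CFT 2, while Gbp2, B2m and Isg20 peaked in CFT 4 and Nlrc5 and Tap2 in CFT 3. Without CFT 2, 15 of 33 members rose and 2 fell against WT H1.4, and 36.3% of all tested genes passed in either direction. Libraries CFT 1 and CFT 2 were above CFT 3 and CFT 4 for 22 members by their mean, with no overlap in 13, and below with no overlap in 5. Over all tested genes 31.0% and 26.3% had these patterns. In WT H1.4 the counts of members with no overlap were 5 and 9, and the shares of all tested genes were 21.7% and 21.5%, so both counts lay near the background.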

How the data were processed

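Polyadenylated RNA of 11 cultures was sequenced, 4 of H1.4 CFT, 4 of WT H1.4 and 3 of GFP, which the series' design text calls biological replicates. The values are raw read counts per gene, deposited by the authors as 1 file per library. Per the submitters' processing notes, STAR 2.7.2b, HTSeq 0.10.0 and the mRatBN7.2 build were used. The annotation release and the strand setting are not given in the sources used here. Summary entries, between 53.1% and 54.1% of each file's total, were left out. Total gene counts ran from 12070941 to 18846492, which sets the counting error of low genes. P-values measure the spread between these libraries, and the main fit counts every library as an independent replicate. Within H1.4 CFT and within WT H1.4, however, the libraries stood in close pairs, and GFP 3 stood near GFP 4. Whether the libraries of a pair are independent was not tested. If they are not, each group holds fewer independent replicates than its n, and the p-values of the main fit could be too small.

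All 11 libraries entered 1 fit on group in edgeR 4.0.16 (R 4.3.3), with TMM scaling, the filterByExpr filter (minimum count 10, minimum total 15) and robust quasi-likelihood tests with 8 residual degrees of freedom. Benjamini-Hochberg adjustment ran over all 17294 genes tested, with a threshold of 0.05. The biological coefficient of variation was 7.02%. Fold changes are H1.4 CFT over WT H1.4 or GFP, or WT H1.4 over GFP, and their SE was computed from the F statistic. The heat map uses log2(CPM + 0.5). Intervals and floors cover counting error only. Promoter windows are RefSeq's, on GRCr8.

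The members and the other gene lists were chosen with earlier results of these data known. All members were accounted for, and up to 4 per role that passed, by smallest p, are given with the value of every library. Usp18 and Ifi27 were given likewise after their values were seen. Of each other list up to 3 that passed were named by smallest p. A gene that the rule also names is not reported here. Same-numbered libraries were checked for pairing by the correlation of their deviations from the group means. It was 0.149, 0.174, 0.192 and 0.142 for H1.4 CFT with WT H1.4. For H1.4 CFT with GFP it was 0.255, 0.124 and 0.163, and for WT H1.4 with GFP 0.206, 0.113 and 0.0927. Unequal numbers of the same set (1 with 2, 3 with 4) correlated about as strongly. They ran from 0.147 to 0.189, from 0.123 to 0.263 and from 0.131 to 0.224, in the same order of groups. The check therefore does not separate single numbers from these sets. The main fit was on group only, and the replicate block was run as an alternative. Alternatives were RLE scaling, DESeq2 1.42.0, limma-voom (limma 3.58.1), no filter, the replicate block, a stricter filter of 5 CPM in 3 libraries, no robust estimation, only the groups compared, only libraries 1 and 2 or 3 and 4, and each library left out. The same alternatives for the other lists were added after the data were seen.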

Additional observations from a re-analysis of the deposited data

Results flagged for a closer look

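Of 106 gene and group combinations with 4 libraries, 3 held a library far from the others by Dixon's test at the 95% level, where chance gives about 1 in 20. Parp9 stood at 9.74 CPM in CFT 2, and the other H1.4 CFT libraries lay between 6.19 and 6.59 CPM. Mx2 stood at 11.1 CPM in WT 2, with the other WT H1.4 libraries between 8.07 and 8.55 CPM. Isg20 stood at 6.51 CPM in WT 2, with the others between 4.92 and 5.15 CPM.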

How the results depend on the processing

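No member or other named gene reversed its direction of a call in any alternative run. In H1.4 CFT relative to WT H1.4 22 members passed, and leaving out each library in turn gave 17 to 22. In those fits 29.3% to 36.5% of all tested genes passed. The stricter filter left 21 members to test, of which 13 passed, and 42.4% of all genes tested in that fit passed. In H1.4 CFT against GFP 12 passed, and leaving out each library gave 5 to 13, where 22.5% to 29.9% of all tested genes passed. In WT H1.4 against GFP 0 passed, and with no low-count filter 1 did (B2m, lower). The replicate block, by library number, gave 24 members in H1.4 CFT relative to WT H1.4. It gave 14 in H1.4 CFT against GFP and 0 in WT H1.4 against GFP. In these fits 39.4%, 32.4% and 1.43% of all tested genes passed, in the same order. The check for pairing did not separate equal numbers from the sets in any of these comparisons. The block changed no call of a named gene other than those of Ifi27, Psmb9, Stat2, Usp18, B2m, Tap2 and Calr given above. RLE scaling moved the median of all genes by at most 0.0023 in size on the log2 scale. The cause of these differences was not tested, except that the stricter filter tests fewer genes. Depth limits the IFIT genes, Irf7, Zbp1, Sp100 and Cxcl10, which were not testable.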
